A study of Canis lupus familiaris with 22 samples.

Results

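The measurements described here are those of the chemokine interleukin-8 and of receptors and adhesion molecules that neutrophils carry on their surface, in the blood of dogs with canine atopic dermatitis (cAD) and of healthy dogs. The 8 genes were *CXCL8* (written *IL8* in most of the scanner files), *CXCR1*, *CXCR2*, *CSF3R*, *FPR1*, *ITGAM*, *ITGB2* and *PTAFR*, and a probe was taken when the gene name given to it in the scanner files was one of these. Of the 8 genes, 6 had a probe, with 14 probes among the 43603 of the array, while *CXCR1* and *FPR1* had no probe by name and were not analysed here. The arrays held RNA from venous whole blood of 8 healthy dogs (ctrl) and of 7 cAD patients that were sampled before allergen-specific immunotherapy (ASIT, the group named 0) and again 6 months into it, with 1 array for each blood sample. The labels give no age, sex or breed. They call the material whole blood, while the title of the series speaks of nuclear cells of peripheral blood, and the labels are followed here. Dogs are paired by the numbers in the source names, since the titles of all samples after therapy name patient 1. Cy5 marked the RNA of the individual dog on every array, and Cy3 a reference common to all arrays, made of whole blood RNA of 13 healthy dogs. Values are log2 ratios of dog to reference, so that 0 is the level of the pool and a positive value lies above it, and their precision is limited by the number of arrays. The comparison 0 vs. ctrl asks how patients before ASIT differ from healthy dogs, 6 months vs. ctrl asks the same of them during therapy, and 0 vs. 6 months compares the patients with themselves, each as the first group minus the second.

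Neutrophils follow chemokines from the blood into inflamed tissue. Interleukin-8, released by monocytes, epithelial cells and neutrophils themselves, binds CXCR1 and CXCR2 on the neutrophil, while the receptors for formylated bacterial peptides and for platelet-activating factor prime the cell for adhesion, granule release and the oxidative burst. The granulocyte colony-stimulating factor receptor sustains the production of neutrophils in the bone marrow, and the integrin chains encoded by *ITGAM* and *ITGB2* pair to form a complement receptor by which the cell holds on to vessel walls and opsonized particles.

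All 14 probes were well above background in both channels on all 22 arrays, none was saturated, and none had a ratio set to 0. Of all 43603 probes, 19944 were well above background in both channels on each array. Counted array by array, Cy5 alone was well above background for a median of 87.8% of the probes in ctrl, 62.5% before ASIT and 61.6% after ASIT. Each probe had 1 spot on the array. In bulk RNA of blood, fewer cells of a type and less RNA per cell cannot be told apart.

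The groups were compared probe by probe with limma, a linear model fitted over all tested probes, with p adjusted over all of them. This fit had no term for the dog. For 0 vs. 6 months its intervals and p, like the exact permutation p, therefore leave the pairing of the dogs out. The exact sign-flip permutation p uses the pairing, as does the fit with the dog as a replicate block. No probe of the 6 genes passed an adjusted p of 0.05 in any comparison. For 0 vs. ctrl, 0 of 14 probes were called, where 0.0418% of all 38286 tested probes were, and 0 had an unadjusted p under 0.05, against 11.7% of all. For 6 months vs. ctrl, 0 were called (all tested probes: 0%) and 0 were under 0.05 before adjustment (all: 7.2%). For 0 vs. 6 months, 0 were called (all: 0%) and 0 were under 0.05 before adjustment (all: 5.96%). Tukey's test also called 0 of these probes, with 0 under 0.05 before adjustment. The comparisons with ctrl share the 8 control arrays, which filled slides 1 and 2 and were scanned apart from the others. These differences cannot be told apart from slide or scan. For every one of the 14 probes the values of the groups overlapped in all 3 comparisons. The share of all tested probes with such an overlap was not computed, so this is a description.

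*CXCL8*, the gene of interleukin-8, was read from 4 probes, and the brightest of them, at chr13:62438080-62438139 (canFam3.1), served as its main probe. Its log2 ratio ranged from -1.84 to 0.39 with a median of -0.17 in ctrl, from -0.39 to 1.46 with a median of 0.046 before ASIT and from -0.90 to 0.74 with a median of -0.19 after ASIT. Dog 5 had the highest value of its group both before (1.46) and after ASIT (0.74), and the low end of ctrl was made of control dogs 7 (-1.84), 5 (-1.29) and 8 (-0.94). These 3 control dogs lay on slide 2, where the mean was -1.05 (n = 4), against 0.085 (n = 4) on slide 1. As a mean this was -0.48 ± 0.79 (SD, n = 8) for the control dogs, 0.14 ± 0.62 (SD, n = 7) for the patients before therapy and -0.25 ± 0.56 (SD, n = 7) for them 6 months later.

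Patients before ASIT differed from ctrl by 0.63 (95% interval -0.045 to 1.30, limma adjusted p = 0.467, exact permutation p = 0.122). At 6 months the difference from ctrl was 0.23 (95% interval -0.44 to 0.90, limma adjusted p = 0.888, exact permutation p = 0.534). The mean before ASIT minus that at 6 months came to 0.40 (95% interval -0.29 to 1.09, limma adjusted p = 0.934, exact permutation p = 0.237, all without the pairing). The value was higher before ASIT in 6 of 7 dogs (exact sign-flip permutation p = 0.0625, paired). Each of these differences was smaller than the pooled SD of 0.67 within groups. With the dog as a replicate block, the difference for 0 vs. 6 months of 0.40 had an unadjusted limma p of 0.0449 and an adjusted p of 0.756. On slide 3, which held dogs 1 and 2 at both time points, the value before ASIT minus that after was 0.22, and on slide 4, with dogs 3 and 4 before and dog 3 after ASIT, it was 0.37. With the slide as a fixed block it was 0.28. For each gene that value rests on slides 3 and 4, the only slides with both time points, and adds no further arrays. With the signals corrected by normexp and loess, in place of the scanner software, 0 vs. 6 months came to 0.16 (limma adjusted p = 0.9998) and 5 of 7 dogs were higher before ASIT. Single dogs moved these differences. Without dog 5 before ASIT, 0 vs. ctrl gave 0.41 and 0 vs. 6 months 0.18, while 6 months vs. ctrl gave 0.033 without control dog 7, 0.11 without control dog 5 and 0.061 without dog 5 after ASIT.

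**Figure D1:**
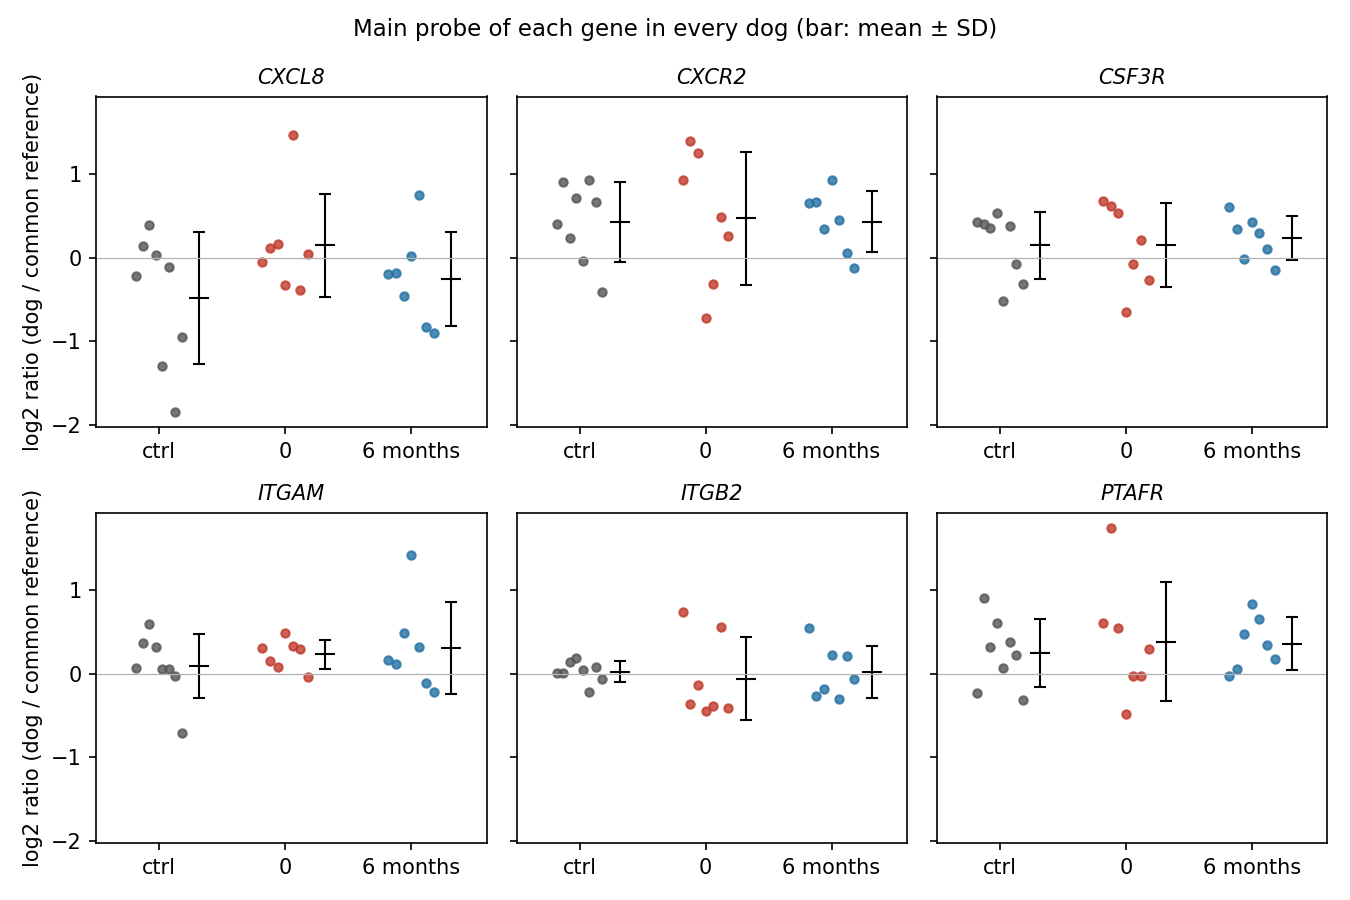
Log2 ratio of dog to common reference (vertical axis) for the main probe of each gene, with 1 point for each array in ctrl (n = 8), before ASIT (0, n = 7) and after 6 months of ASIT (n = 7), and the mean ± SD beside the points. The groups overlap for all 6 genes, and *CXCL8* in ctrl reaches down to -1.84.

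The 3 other *CXCL8* probes, at transcript positions 194, 260 and 76 against 1160 for the main probe, varied with it across the arrays. The correlation between any pair of the 4 probes over the 22 arrays was 0.83 to 0.93, as a description, since the probes share the samples. For 0 vs. ctrl they gave 0.50, 0.20 and 0.41. In 6 months vs. ctrl the same probes gave 0.086, -0.11 and -0.093, and before minus after ASIT 0.41, 0.31 and 0.50. The sign for 6 months vs. ctrl thus depended on the probe, while all 4 were on the positive side for the comparisons of the dogs before ASIT with ctrl and with 6 months.

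A pair of the *CXCL8* probes is shown, as the files give them, because they read different stretches of the transcript and still varied together over the 22 arrays (r = 0.93). The first aligns to chr13:62436398-62436736 on canFam3.1, a span longer than its 60 bases, and the second to chr13:62436280-62436339. Exons could not be assigned, since the files hold no gene models.
*CXCL8* probe at transcript position 194: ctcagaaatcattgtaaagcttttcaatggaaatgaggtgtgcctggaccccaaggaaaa
*CXCL8* probe at transcript position 76: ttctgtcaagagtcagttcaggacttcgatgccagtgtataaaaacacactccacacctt

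*CXCR2* encodes a receptor for interleukin-8 and related chemokines and had 1 probe, at chr37:24844188-24844247. The log2 ratio ranged from -0.41 to 0.92 with a median of 0.53 in ctrl, from -0.73 to 1.39 with a median of 0.48 before ASIT and from -0.12 to 0.92 with a median of 0.45 after ASIT. Before ASIT, dogs 2 (1.39), 3 (1.24) and 1 (0.93) lay above every control dog and dog 4 (-0.73) below every one, while after ASIT dog 4 was the highest (0.92). With normexp and loess dog 2 had 0.72, below control dogs 2 (0.81) and 6 (0.78), and dog 1 had 0.82. The means were 0.42 ± 0.47 (SD, n = 8), 0.47 ± 0.79 (SD, n = 7) and 0.42 ± 0.36 (SD, n = 7) in the same order. All 3 mean differences lay near 0. They were 0.044 (95% interval -0.53 to 0.62, limma adjusted p = 0.972, exact permutation p = 0.893) for 0 vs. ctrl, 0.0028 (95% interval -0.58 to 0.58, limma adjusted p = 0.999, exact permutation p = 0.993) for 6 months vs. ctrl and 0.041 (95% interval -0.56 to 0.64, limma adjusted p = 0.984, exact permutation p = 0.902) for 0 vs. 6 months. The higher value came before ASIT in 5 of 7 dogs (exact sign-flip permutation p = 0.938). In dogs 1 to 3, whose arrays at both time points shared a slide, the difference for 0 vs. 6 months was 0.63 (limma adjusted p = 0.902). It was 0.50 within slide 3 and -0.087 within slide 4, and 0.27 with the slide as a fixed block. Single dogs moved the mean differences of *CXCR2*. Without dog 4 before ASIT, 0 vs. ctrl and 0 vs. 6 months were each 0.24, and without dog 2 before ASIT each was -0.11.

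The sequence of this probe is shown because all *CXCR2* values rest on it.
*CXCR2* probe: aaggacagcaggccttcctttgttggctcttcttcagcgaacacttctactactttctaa

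*CSF3R*, the receptor of granulocyte colony-stimulating factor, was read from a main probe at chr15:5831614-5831673. Its log2 ratio ranged from -0.52 to 0.54 with a median of 0.36 in ctrl, from -0.65 to 0.67 with a median of 0.21 before ASIT and from -0.15 to 0.60 with a median of 0.29 after ASIT. Dog 1 was the highest of its group at both times (0.67 and 0.60), and dog 4 was the lowest before ASIT. With normexp and loess dog 3 (0.56) lay above dog 1 (0.53) before ASIT. The means were 0.14 ± 0.39 (SD, n = 8), 0.15 ± 0.50 (SD, n = 7) and 0.23 ± 0.26 (SD, n = 7). In 0 vs. ctrl the *CSF3R* difference was 0.0042 (95% interval -0.42 to 0.43, limma adjusted p = 0.997, exact permutation p = 0.985). It stood at 0.083 (95% interval -0.34 to 0.51, limma adjusted p = 0.942, exact permutation p = 0.65) in 6 months vs. ctrl. Between the time points it was -0.079 (95% interval -0.52 to 0.36, limma adjusted p = 0.963, exact permutation p = 0.723), and 4 of 7 dogs were higher before ASIT (exact sign-flip permutation p = 0.734). Before minus after ASIT was 0.17 within slide 3, -0.040 within slide 4 and 0.087 with the slide as a fixed block. Slide 4 held dog 4 (-0.65) before ASIT alone. In dogs 1, 2 and 3, whose arrays shared a slide, the difference was 0.067, 0.28 and 0.55. The dimmer probe of the gene, at chr15:5824381-5824440, gave -0.12, -0.12 and -0.0031 in the 3 comparisons, and its correlation with the main probe over the 22 arrays was 0.69.

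*PTAFR*, the receptor of platelet-activating factor, had 1 probe, at chr2:72255209-72255268. The log2 ratio ranged from -0.32 to 0.90 with a median of 0.27 in ctrl, from -0.48 to 1.74 with a median of 0.29 before ASIT and from -0.025 to 0.83 with a median of 0.35 after ASIT. The value of dog 2 before ASIT (1.74) was the highest of the 22 arrays and stood at 0.060 after ASIT, while dog 4 had -0.48 before and 0.83 after ASIT. The value of dog 2 depended on the processing. With normexp and loess it was 0.34 before and 0.036 after ASIT, below control dogs 2 (0.60) and 4 (0.41), dog 3 before ASIT (0.36) and dog 4 after ASIT (0.42). The means were 0.24 ± 0.41 (SD, n = 8), 0.38 ± 0.71 (SD, n = 7) and 0.36 ± 0.31 (SD, n = 7). Against ctrl, *PTAFR* differed by 0.14 (95% interval -0.38 to 0.66, limma adjusted p = 0.878, exact permutation p = 0.671) before ASIT and by 0.12 (95% interval -0.40 to 0.63, limma adjusted p = 0.932, exact permutation p = 0.545) at 6 months. Before minus after ASIT it differed by 0.022 (95% interval -0.51 to 0.56, limma adjusted p = 0.99, exact permutation p = 0.95), with 4 of 7 dogs higher before (exact sign-flip permutation p = 0.922). Within slide 3 the difference for 0 vs. 6 months was 1.15, within slide 4 it was -0.44, and with the slide as a fixed block it was 0.52. Leaving out dog 2 before ASIT turned the differences for 0 vs. ctrl and 0 vs. 6 months to -0.089 and -0.21.

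*ITGAM*, which encodes the alpha chain of the integrin, had 4 probes, and the brightest lay at chr6:16944111-16944170. Its log2 ratio ranged from -0.71 to 0.59 with a median of 0.064 in ctrl, from -0.037 to 0.48 with a median of 0.30 before ASIT and from -0.23 to 1.41 with a median of 0.16 after ASIT. Dog 4 had the highest value both before (0.48) and after ASIT (1.41), and control dog 8 the lowest of all (-0.71). The means were 0.088 ± 0.38 (SD, n = 8), 0.23 ± 0.18 (SD, n = 7) and 0.31 ± 0.54 (SD, n = 7). For *ITGAM*, 0 vs. ctrl gave 0.14 (95% interval -0.29 to 0.57, limma adjusted p = 0.844, exact permutation p = 0.433). The treated dogs gave 0.22 (95% interval -0.21 to 0.64, limma adjusted p = 0.816, exact permutation p = 0.418) against ctrl. Comparing 0 with 6 months gave -0.077 (95% interval -0.52 to 0.36, limma adjusted p = 0.964, exact permutation p = 0.815), although 5 of 7 dogs were higher before ASIT (exact sign-flip permutation p = 0.75). Without dog 4 after ASIT, 0 vs. 6 months was 0.11 and 6 months vs. ctrl 0.033. Without control dog 8, 0 vs. ctrl was 0.026 and 6 months vs. ctrl 0.10. Before minus after ASIT was 0.093 within slide 3, -0.21 within slide 4 and -0.028 with the slide as a fixed block.

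The *ITGAM* probes followed each other less closely than those of *CXCL8*, with correlations of 0.41 to 0.79 between pairs over the 22 arrays. For 0 vs. ctrl the 3 dimmer probes gave -0.35, -0.0077 and -0.28, all below 0 where the main probe lay above it, and for 6 months vs. ctrl they gave -0.10, 0.034 and -0.028. For 0 vs. 6 months all 4 probes were on the negative side, at -0.25, -0.041 and -0.25 for the dimmer ones. Dog 4 after ASIT was the highest of its group in all 4 probes, and control dog 8 was the lowest of ctrl in all 4. Of the 4, the probe with the largest number of control dogs above every dog before ASIT (5 of 8, exact permutation p = 0.186) aligns to chr6:16964791-16965154 and is shown for that reason.
*ITGAM* probe at transcript position 1497: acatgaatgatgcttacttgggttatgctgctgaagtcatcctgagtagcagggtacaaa

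*ITGB2*, which encodes the beta chain shared by this integrin and other leukocyte integrins, was read from a main probe at chr31:38521136-38521195. Its log2 ratio ranged from -0.22 to 0.19 with a median of 0.027 in ctrl, from -0.44 to 0.73 with a median of -0.36 before ASIT and from -0.30 to 0.54 with a median of -0.060 after ASIT. The control dogs lay close together, while the cAD patients fell on both sides of them: before ASIT dogs 1 (0.73) and 6 (0.55) lay above every control dog, and dogs 2, 4, 5 and 7 below every one. The means were 0.022 ± 0.13 (SD, n = 8), -0.064 ± 0.50 (SD, n = 7) and 0.023 ± 0.31 (SD, n = 7). The *ITGB2* mean before ASIT minus that of ctrl was -0.086 (95% interval -0.46 to 0.29, limma adjusted p = 0.896, exact permutation p = 0.644). After 6 months this was 0.0017 (95% interval -0.37 to 0.38, limma adjusted p = 0.999, exact permutation p = 0.986). Before minus after ASIT was -0.087 (95% interval -0.48 to 0.30, limma adjusted p = 0.952, exact permutation p = 0.703), and 3 of 7 dogs were higher before ASIT (exact sign-flip permutation p = 0.531). Within slides 3 and 4 the time points differed by 0.047 and -0.11, and by -0.014 with the slide as a fixed block. The second probe of the gene, at chr31:38525731-38525790, gave 0.072, 0.35 and -0.28 in the 3 comparisons and correlated with the main probe over the 22 arrays by 0.87. In that probe the control dogs ranged from -0.37 to 0.73 with a median of -0.22.

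The spread within groups differed between the genes and also between probes of a gene. The pooled SD of the main probe was 0.34 for *ITGB2*, 0.40 for *ITGAM*, 0.40 for *CSF3R*, 0.50 for *PTAFR*, 0.57 for *CXCR2* and 0.67 for *CXCL8* on the log2 scale. Of all tested probes, 24.8% had a smaller SD than the main probe of *ITGB2* and 81.5% a smaller SD than that of *CXCL8*. The order of the genes depended on the probe. The second *ITGB2* probe had an SD of 0.56, with 67.2% of all tested probes below it. The *CXCL8* probes at transcript positions 194, 260 and 76 had 0.56, 0.49 and 0.72.

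**Figure D2:**
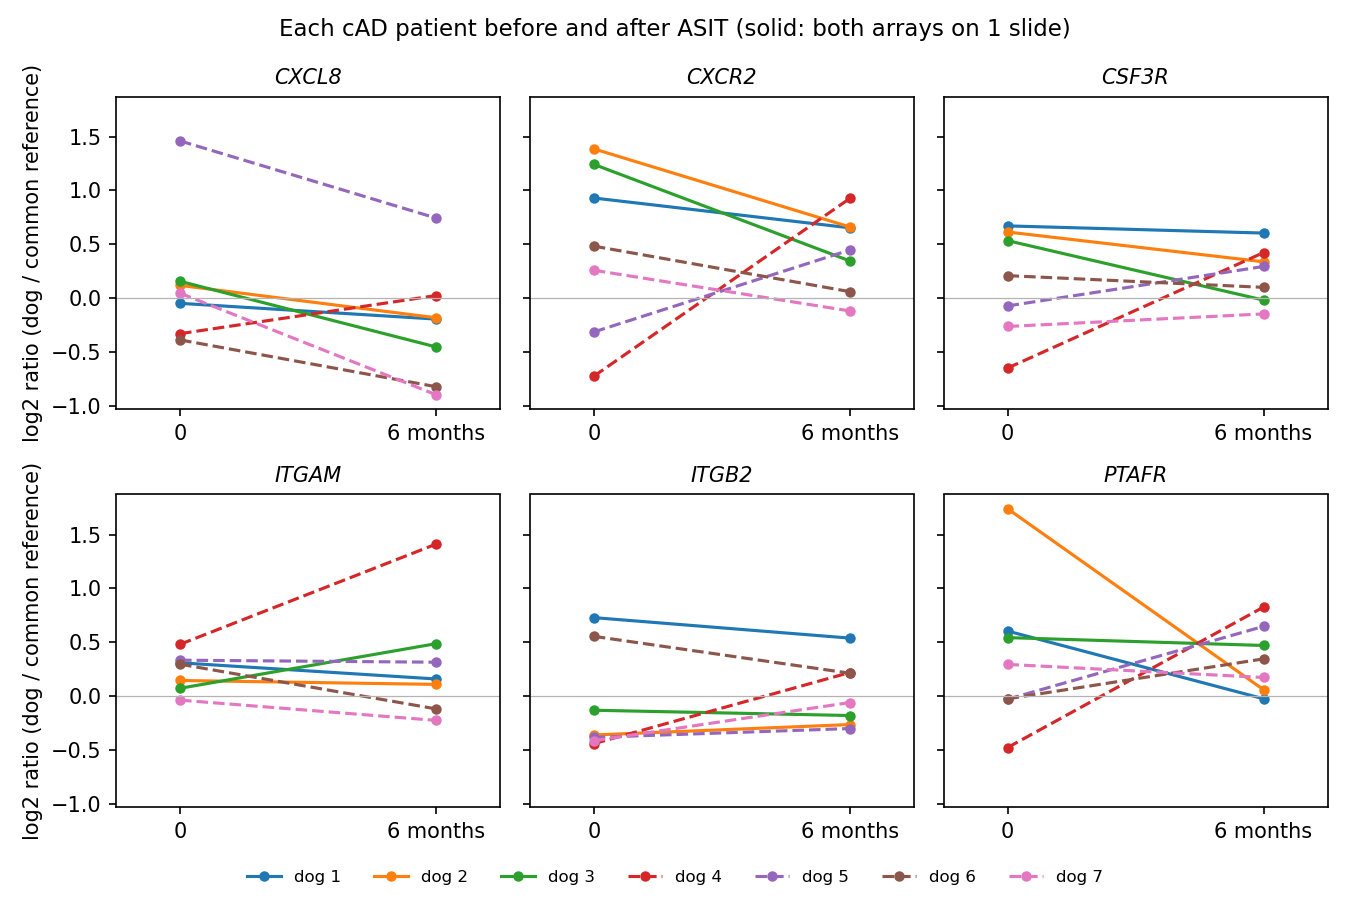
Log2 ratio of dog to common reference (vertical axis) of each cAD patient before (0) and after 6 months of ASIT for the main probe of each gene, with 1 line for each of 7 dogs. Solid lines join arrays of the same slide (dogs 1 to 3), and dashed lines arrays of different slides. *CXCL8* was higher before ASIT in 6 of 7 dogs, and the lines of *CXCR2* and *PTAFR* cross.

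Whether a dog kept its place from before to after ASIT was examined for the 6 main probes, a set of 6 relations chosen after the values had been seen. For *PTAFR* the values before and after ASIT had r = -0.73 over the 7 dogs (exact permutation p = 0.0341, 0.205 after Benjamini-Hochberg adjustment over the 6) and Spearman's rho = -0.86 (exact permutation p = 0.0238, 0.143 after adjustment). Without dogs 2 and 4, the farthest from the median before ASIT, r was -0.58. With normexp and loess it was -0.38 over the 7 dogs (exact permutation p = 0.386) and 0.47 without the 2 farthest, so that it depended on the processing. For *CXCL8* r was 0.74 (exact permutation p = 0.152, 0.229 after adjustment) with rho = 0.36 (exact permutation p = 0.444), and -0.55 without dogs 5 and 6, so it rested on those dogs. The *CXCL8* probes at transcript positions 194, 260 and 76 had r = 0.47, 0.61 and 0.010. Without the 2 farthest dogs of each probe they had -0.071, -0.17 and 0.82. For *ITGB2* r was 0.74 (exact permutation p = 0.104, 0.209 after adjustment) with rho = 0.25 (exact permutation p = 0.595), and -0.39 without dogs 1 and 6, on which it rested. The other 3 genes had r = -0.14 (*CXCR2*), 0.16 (*CSF3R*) and 0.64 (*ITGAM*), with exact permutation p of 0.752, 0.717 and 0.0972, adjusted values of 0.752, 0.752 and 0.209, rho of -0.036, 0.32 and 0.61 and r of 0.23, 0.29 and 0.79 without the 2 farthest dogs. With normexp and loess these were -0.11, 0.11 and 0.70 over the 7 dogs, and 0.57, 0.84 and -0.33 without the 2 farthest, so that the sign for *ITGAM* then turned. For *CXCL8* and *ITGB2* they were 0.67 and 0.73, and -0.73 and -0.10 without the 2 farthest. The 3 dimmer *ITGAM* probes had r = -0.18, 0.14 and 0.16 over the 7 dogs, and 0.25, -0.95 and -0.77 without the 2 farthest, so that the value of the main probe did not extend to them. The arrays before and after ASIT shared a slide in dogs 1 to 3 alone, too few for these relations within slides. Over all tested probes the median of r was 0.36, with quartiles of 0.019 and 0.61.

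Each pair of the main probes, and of no other probes, was compared within ctrl and within the cAD patients before ASIT. This makes 30 relations, also chosen after the values had been seen. Of these, 21 were positive (14 of 15 in ctrl and 7 of 15 before ASIT), 5 had an exact permutation p under 0.05 for r, and 0 did after Benjamini-Hochberg adjustment over the 30. *CXCL8* with *ITGAM* in ctrl had r = 0.59 and Spearman's rho = 0.83 (exact permutation p = 0.0154, 0.119 after adjustment). *CSF3R* with *ITGB2* before ASIT had r = 0.54 and rho = 0.86 (exact permutation p = 0.0238, 0.119 after adjustment). Without the 2 farthest dogs r was 0.99 and 0.27. Taken as deviations from the slide means, r was 0.14 and 0.45 for these pairs. The receptors *CXCR2* and *PTAFR* had r = 0.85 (n = 7 dogs, exact permutation p = 0.00278, 0.0833 after adjustment) and Spearman's rho = 0.93 (exact permutation p = 0.00675, 0.119 after adjustment) before ASIT, with r = 0.81 without the 2 dogs farthest from the median of *CXCR2*. In ctrl they had r = 0.76 (n = 8 dogs, exact permutation p = 0.0262, 0.197 after adjustment) and Spearman's rho = 0.81 (exact permutation p = 0.0218, 0.119 after adjustment), with r = 0.62 without the 2 farthest dogs. *CXCR2* and *CSF3R* had r = 0.92 (n = 7 dogs, exact permutation p = 0.00794, 0.119 after adjustment) and Spearman's rho = 0.86 (exact permutation p = 0.0238, 0.119 after adjustment) before ASIT, and r = 0.82 without the 2 farthest dogs. In ctrl they had r = 0.72 (n = 8 dogs, exact permutation p = 0.0643, 0.276 after adjustment) and Spearman's rho = 0.64 (exact permutation p = 0.0962, 0.353 after adjustment), and r = 0.030 without the 2 farthest dogs, on which that relation rested. *CSF3R* and *PTAFR* had r = 0.75 (n = 7 dogs, exact permutation p = 0.0179, 0.179 after adjustment) and Spearman's rho = 0.86 (exact permutation p = 0.0238, 0.119 after adjustment) before ASIT, with r = 0.72 without the 2 farthest dogs, and r = 0.54 (n = 8 dogs, exact permutation p = 0.154, 0.43 after adjustment) and Spearman's rho = 0.55 (exact permutation p = 0.171, 0.353 after adjustment) in ctrl, with r = 0.23 without the 2 farthest. *CXCL8* and *CSF3R* had r = 0.80 (n = 8 dogs, exact permutation p = 0.033, 0.198 after adjustment) and Spearman's rho = 0.57 (exact permutation p = 0.151, 0.353 after adjustment) in ctrl, with r = 0.84 without the 2 farthest dogs. Before ASIT this was r = -0.0063 (n = 7 dogs, exact permutation p = 0.928, 0.928 after adjustment) and Spearman's rho = 0.14 (exact permutation p = 0.783, 0.81 after adjustment), with r = 0.72 without the 2 farthest dogs. Control dogs 5 and 7, the lowest in *CXCL8*, had -0.52 and -0.077 in the main *CSF3R* probe. In the dimmer *CSF3R* probe they were the highest of ctrl (0.41 and 0.38), so the relation in ctrl was seen for the main probe alone. *CXCL8* and its receptor *CXCR2* had r = 0.35 (n = 8 dogs, exact permutation p = 0.392, 0.653 after adjustment) and Spearman's rho = 0.36 (exact permutation p = 0.389, 0.649 after adjustment) in ctrl, with r = 0.66 without the 2 farthest dogs. Before ASIT they had r = -0.19 (n = 7 dogs, exact permutation p = 0.675, 0.88 after adjustment) and Spearman's rho = 0.21 (exact permutation p = 0.662, 0.794 after adjustment), with r = 0.89 without the 2 farthest dogs, so that the sign turned. The chains of the integrin, *ITGAM* and *ITGB2*, had r = 0.47 (n = 8 dogs, exact permutation p = 0.257, 0.481 after adjustment) and Spearman's rho = 0.52 (exact permutation p = 0.197, 0.353 after adjustment) in ctrl and r = 0.20 (n = 7 dogs, exact permutation p = 0.659, 0.88 after adjustment) and Spearman's rho = -0.14 (exact permutation p = 0.783, 0.81 after adjustment) before ASIT, with r = 0.36 and -0.12 without the 2 farthest dogs.

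With *CXCR2* and with *PTAFR*, the main probe of *ITGAM* had r above 0 in ctrl and below 0 before ASIT over all dogs of each group. With *CXCR2* it had r = 0.58 (n = 8 dogs, exact permutation p = 0.165, 0.43 after adjustment) and Spearman's rho = 0.24 (exact permutation p = 0.582, 0.794 after adjustment) in ctrl and r = -0.58 (n = 7 dogs, exact permutation p = 0.172, 0.43 after adjustment) and Spearman's rho = -0.57 (exact permutation p = 0.2, 0.353 after adjustment) before ASIT, with r = -0.37 and -0.25 without the 2 farthest dogs, on which the sign in ctrl rested. With *PTAFR* it had r = 0.69 (n = 8 dogs, exact permutation p = 0.0503, 0.251 after adjustment) and Spearman's rho = 0.60 (exact permutation p = 0.132, 0.353 after adjustment) in ctrl and r = -0.51 (n = 7 dogs, exact permutation p = 0.252, 0.481 after adjustment) and Spearman's rho = -0.57 (exact permutation p = 0.2, 0.353 after adjustment) before ASIT, with r = 0.79 and -0.91 without the 2 farthest dogs. The differences between the groups in these relations were not tested, and the 3 dimmer *ITGAM* probes were not used for them. Before ASIT, dogs 4 and 5 were the lowest in *CXCR2* and *PTAFR* and the highest in the main *ITGAM* probe (0.48 and 0.33). In the *ITGAM* probe at transcript position 2973 they were the lowest (-0.54 and -0.65). They had -0.11 and -0.26 at position 3563, and -0.22 and 0.0022 at position 1497. The sign before ASIT was thus seen for the main probe alone.

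The slide means differed in these genes. Within a group each slide held other dogs, so that slide and dog cannot be told apart. Before ASIT, slide 3 had means of 1.16 for *CXCR2*, 1.17 for *PTAFR* and 0.64 for *CSF3R* (n = 2), against 0.26, 0.033 and -0.058 on slide 4 (n = 2) and 0.14, 0.080 and -0.042 on slide 5 (n = 3). For *PTAFR*, slide 3 included dog 2 at 1.74, a value of 0.34 with normexp and loess. After ASIT, slide 3 had 0.66, 0.018 and 0.47 for the same genes (n = 2). Slide 4 then had 0.35, 0.47 and -0.018 (n = 1), and slide 6 had 0.33, 0.50 and 0.17 (n = 4). In ctrl, slide 1 lay above slide 2 for all 3 genes (0.56 against 0.28, 0.40 against 0.085 and 0.42 against -0.14, n = 4 each). Taken as deviations from the slide means, r before ASIT was 0.76 for *CXCR2* with *PTAFR*, 0.88 for *CXCR2* with *CSF3R* and 0.50 for *CSF3R* with *PTAFR*. In ctrl it was 0.73 for *CXCR2* with *PTAFR*, 0.78 for *CXCR2* with *CSF3R*, 0.38 for *CSF3R* with *PTAFR* and 0.53 for *CXCL8* with *CSF3R*. For *ITGAM*, in its main probe alone, it was 0.53 in ctrl and -0.76 before ASIT with *CXCR2*, and 0.62 in ctrl and -0.80 before ASIT with *PTAFR*. Among all pairs in ctrl, the sign turned for *CXCL8* with *ITGB2* (0.044 over all dogs, -0.68 within slides). It also turned for *CSF3R* with *ITGB2* (0.10 and -0.54), and for no other pair in ctrl. These values within slides were added after the relations had been seen, and are a description without a test.

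The genes whose main probe was most like that of a member over the 22 arrays were found among 14173 genes with a symbol, as a description, since 14 of the arrays come from 7 dogs. For *CXCR2* they were *CYTIP* (r = 0.91, 0.93 within groups), *BCL6* (r = 0.88, 0.91 within groups) and *EAF1* (r = 0.88, 0.88 within groups). *PTAFR* was followed by *RAB31* (r = 0.93, 0.93 within groups), *SKAP2* (r = 0.90, 0.91 within groups) and *ETS2* (r = 0.85, 0.87 within groups). For *CSF3R* they were *PGD* (r = 0.90, 0.90 within groups), *IL1RN* (r = 0.88, 0.89 within groups) and *PLEK* (r = 0.85, 0.86 within groups), and *ITGAM* was followed by *PLBD1* (r = 0.86, 0.85 within groups), *SRGN* (r = 0.85, 0.85 within groups) and *AMPD1* (r = 0.85, 0.84 within groups). The nearest to *CXCL8* were *RRM2B* (r = 0.82, 0.84 within groups), *PGRMC1* (r = 0.81, 0.79 within groups) and *SNAP23* (r = 0.80, 0.77 within groups). *ITGB2* had the lowest likeness, with *LAPTM5* (r = 0.72, 0.74 within groups), *E2F5* (r = 0.71, 0.78 within groups) and *MED15* (r = 0.70, 0.70 within groups). *BCL6* encodes a transcriptional repressor, *IL1RN* the interleukin-1 receptor antagonist, *SRGN* the granule proteoglycan serglycin, *PLEK* pleckstrin and *LAPTM5* a lysosomal membrane protein of leukocytes.

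Other genes of the same pathways were described by 6 lists, and limma called 0 genes of any of them in any comparison, as did Tukey's test over all tested probes. Of the 66 genes tested in these lists, those under an unadjusted limma p of 0.05 were 1 positive and 3 negative (6.06%, against 11.7% of all tested probes) in 0 vs. ctrl. They were 0 positive and 2 negative (3.03%, against 7.2% of all tested probes) in 6 months vs. ctrl and 0 positive and 0 negative (0%, against 5.96% of all tested probes) in 0 vs. 6 months. Differences are given for 0 vs. ctrl, 6 months vs. ctrl and 0 vs. 6 months in this order, and the median over all tested probes was -0.017, -0.040 and -0.0092. Of 15 genes for ligands of neutrophil receptors, 8 were tested, with medians of -0.0059, -0.087 and 0.11. *TNF* was the most positive in both comparisons with ctrl (0.43 and 0.60) and the most negative in 0 vs. 6 months (-0.17), while *PPBP*, a platelet chemokine, was the most negative in 0 vs. ctrl (-0.65) and *CSF3*, the ligand of the *CSF3R* product, was the most negative in 6 months vs. ctrl (-0.77) and the most positive in 0 vs. 6 months (0.61). The *CSF3* probe was well above background on 11 of 22 arrays.

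Of 21 other receptors of neutrophils, 12 were tested, with medians of -0.044, 0.0032 and -0.041. *CXCR4*, the receptor that holds neutrophils in the bone marrow, had log2 ratios of 0.66 ± 0.22 before ASIT (SD, n = 7) and -0.090 ± 0.60 in ctrl (SD, n = 8), a difference of 0.75 with an unadjusted limma p of 0.00259 and an adjusted p of 0.176. It was also the most positive in 0 vs. 6 months (0.33), where *TNFRSF1A* was the most negative (-0.22). *FPR2* was the most positive in 6 months vs. ctrl (0.50), and its probe carries the description of formyl peptide receptor 1 in the files. *C3AR1*, a receptor for a complement fragment, was the most negative in both comparisons with ctrl (-0.30 and -0.57), from a probe well above background on 14 of 22 arrays.

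Of 17 adhesion partners, 13 were tested, with medians of -0.14, -0.15 and -0.021. *ITGA4* was the most positive and *ITGAD* the most negative in 0 vs. ctrl (0.17 and -0.77), *ICAM1* and *ITGAL* in 6 months vs. ctrl (0.095 and -0.47), and *ITGAL* and *SELP* in 0 vs. 6 months (0.32 and -0.36). The *ITGAD* probe was well above background on 11 of 22 arrays. *ITGAL* and *ITGAD* encode other alpha chains that pair with the *ITGB2* product. Of 25 genes for signalling below these receptors, 22 were tested, with medians of -0.063, 0.011 and -0.087. *SOCS3*, an inhibitor of cytokine signalling, was the most positive in both comparisons with ctrl (0.26 and 0.34), with *RAC2* (-0.30) and *RGS18* (-0.30) the most negative, and in 0 vs. 6 months *RGS18* (0.13) and *GNB1* (-0.18) stood at the ends.

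All 6 genes of the NADPH oxidase, the enzyme of the oxidative burst, were tested, with medians of -0.18, -0.021 and -0.11. *NCF1* was the most positive and *CYBB* the most negative in both comparisons with ctrl (0.051 and -0.40 for 0, 0.25 and -0.46 for 6 months), and *CYBB* and *NCF4* stood at the ends in 0 vs. 6 months (0.056 and -0.28). Of 8 granulocyte transcription factors, 5 were tested, with medians of -0.093, 0.19 and -0.17. *CEBPE* was the most positive in both comparisons with ctrl (0.45 and 0.68), *RUNX1* and *GFI1* the most negative there (-0.14 and -0.40), and *GFI1* and *MYB* stood at the ends in 0 vs. 6 months (0.29 and -0.43). Of these, the *MYB* probe was well above background on 15 and the *CEBPE* probe on 19 of 22 arrays.

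Markers of the blood cell types were measured to describe the samples, and limma called 0 genes of these 8 lists in any comparison, as did Tukey's test. Among their 70 tested genes, those under an unadjusted limma p of 0.05 were 0 positive and 0 negative (0%, against 11.7% of all tested probes) in 0 vs. ctrl. They were 4 positive and 1 negative (7.14%, against 7.2% of all tested probes) in 6 months vs. ctrl and 1 positive and 0 negative (1.43%, against 5.96% of all tested probes) in 0 vs. 6 months. For the neutrophil granule proteins, of which 14 of 16 genes were tested, the mean log2 ratio per array was -0.0026 ± 0.22 (SD, n = 8) for control dogs, 0.19 ± 0.57 (SD, n = 7) for patients before therapy and 0.27 ± 0.26 (SD, n = 7) for them 6 months later. Their median differences were 0.022, 0.11 and -0.094, with 9 of 14 genes above 0 against ctrl before ASIT, 9 against ctrl at 6 months and 4 between the time points. The ends were *PGLYRP1* (0.89) and *MMP8* (-0.23) in 0 vs. ctrl, *MMP9* (1.35) and *MMP8* (-0.95) in 6 months vs. ctrl, and *MMP8* (0.71) and *MMP9* (-0.87) in 0 vs. 6 months. Median differences in the same order of comparisons were 0.30, 0.53 and -0.24 for 7 of 9 eosinophil and basophil genes, -0.15, 0.019 and -0.21 for 10 of 10 monocyte genes and 0.079, -0.25 and 0.28 for 12 of 13 T cell genes. They were -0.045, -0.32 and 0.18 for 8 of 9 B cell genes, 0.10, -0.25 and 0.31 for 7 of 10 genes of cytotoxic lymphocytes, 0.49, 0.93 and -0.28 for 7 of 10 erythroid genes and -0.40, -0.085 and -0.36 for 5 of 9 platelet genes. The material is taken as whole blood for these lists too. The part of the cell makeup in the values of the neutrophil genes was not tested.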

How the data were processed

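The authors deposited the scanner output of 22 two-channel Agilent arrays (8 ctrl, 7 before and 7 after ASIT) with the intensity of each spot, and used Feature Extraction (10.7.3.1 per the labels, 10.10.1.1 per the file headers) to subtract background, normalize the dyes and write a log10 ratio of Cy5 to Cy3. The deposited log10 ratios were converted to log2 ratios. The series matrix of the authors holds log10 ratios too: its columns equalled the scanner files for the cAD patients and correlated with them by 0.71 to 0.84 for ctrl, for reasons not given in the sources used here, with column medians of -0.00107 to 0.0251 on the log2 scale.

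Control spots were dropped, as were 208 spots that the scanner software marked as outliers, and the spots of a probe were averaged. Tested were the 38286 probes whose Cy5 signal was well above background on 7 arrays or more. A first form of this filter counted the spots marked as outliers. It was replaced by a filter without them because that gave the number of tested probes known from earlier results of these data. Counting them, an alternative added after seeing the data, gave 38287 probes. The relations with normexp and loess, and those before with after ASIT from other probes, were also added after seeing the data. The 3 groups were compared in 1 fit of limma 3.58.1 (R 4.3.3, with version 1.17.8 of data.table), p was adjusted by Benjamini and Hochberg's method over the tested probes, with calls at an adjusted p under 0.05. Exact 2-sided permutation tests (Python 3.11.15, scipy 1.17.1) were run on single probes; the smallest paired p that 7 dogs allow is 0.0156. Figures were drawn with matplotlib 3.10.9. The fits were tested on simulated data.

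The main probe of a gene was the probe with the highest median Cy5 signal. Every member probe is reported, with the gene at each end of each pathway list and the 3 genes most like each member. Gene names and positions (canFam3.1) are those of the files. The later design version used for 4 arrays renames 20 spots, among them those of *IL8*, and has the same probes and sequences. The members and lists were chosen with earlier results of these data known. The series design states that the same dogs were sampled at both times, and the source names and health condition labels number them 1 to 7 at both, which gives the pairing. The titles after therapy all read patient 1, and their last number was not used for it. Over all tested probes, the deviations of a dog's arrays from the group means correlated by -0.036 to 0.56, and 4 of 7 dogs correlated best with themselves. The dog was a block only as an alternative. The other alternatives were normexp (offset 50) with loess, the ratio of processed signals, the series matrix, Cy5 alone, no filter, a strict filter (the 19944 probes well above background in Cy5 and Cy3 on each array), the slide as a random or fixed block, dogs 1 to 3 alone, Tukey's test after a one-way analysis of variance, each array left out in turn and the other probes of each gene.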

Additional observations from a re-analysis of the deposited data

Results flagged for a closer look

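Samples that stood apart from the rest of their group by Dixon's test were looked for in 42 sets of values (14 probes in 3 groups), and 5 were found. Chance gives about 1 in 20 for a single set. The sets share dogs, and probes of a gene vary together, so the 5 were not compared with that rate. In the main probe of *CXCL8*, dog 5 before ASIT had a log2 ratio of 1.46 with the next dog at 0.16, and in the *CXCL8* probe at transcript position 194, dog 5 after ASIT had 1.02 with the next dog at -0.044. Control dog 8 was the other such dog. It had -0.71 in the main probe of *ITGAM* with the next control dog at -0.027, -0.74 in the *ITGAM* probe at transcript position 2973 with the next at 0.16, and -0.19 in the dimmer probe of *CSF3R* with the next at 0.14. No explanation was tested.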

How the results depend on the processing

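No member probe was called in any comparison under any of the alternatives listed for the processing, single arrays left out included. Among the differences of the 6 main probes, 16 of 144 values under other settings turned their sign, as did 40 of 264 without single arrays and 10 of 24 from other probes, and 0 passed the adjusted threshold (smallest adjusted p = 0.18). At an unadjusted p under 0.05 there were at most 2 of the 14 member probes. In 0 vs. 6 months this came with Cy5 alone (2898 of all 38286 tested probes) and in dogs 1 to 3 alone (1520 of all). In 0 vs. ctrl it came without control dog 8 (4088 of all). With normexp and loess the sign turned for *CXCR2* -0.015 in 0 vs. ctrl, *PTAFR* -0.029 in 0 vs. ctrl, *ITGB2* -0.041 in 6 months vs. ctrl, *PTAFR* -0.028 in 6 months vs. ctrl, *CXCR2* -0.017 in 0 vs. 6 months, *PTAFR* -0.0010 in 0 vs. 6 months. With the series matrix the sign turned for *ITGB2* -0.0084 in 6 months vs. ctrl. In the Cy5 channel alone the sign turned for *ITGB2* 0.24 in 0 vs. ctrl, *CXCR2* -0.023 in 6 months vs. ctrl, *ITGAM* 0.087 in 0 vs. 6 months, *ITGB2* 0.062 in 0 vs. 6 months. Taking the slide as a random block, the sign turned for *CXCR2* -0.027 in 6 months vs. ctrl, *ITGB2* -0.010 in 6 months vs. ctrl. With the slide as a fixed block, a value that rests on slides 3 and 4 alone, the sign turned for *CSF3R* 0.087 in 0 vs. 6 months. In dogs 1 to 3 with the dog as a replicate block the sign turned for *CSF3R* 0.30 in 0 vs. 6 months, *ITGB2* 0.048 in 0 vs. 6 months. From other probes it turned for *CSF3R* -0.12 in 0 vs. ctrl, *ITGAM* -0.35 in 0 vs. ctrl, *ITGAM* -0.0077 in 0 vs. ctrl, *ITGAM* -0.28 in 0 vs. ctrl, *ITGB2* 0.072 in 0 vs. ctrl, *CXCL8* -0.11 in 6 months vs. ctrl, *CXCL8* -0.093 in 6 months vs. ctrl, *CSF3R* -0.12 in 6 months vs. ctrl, *ITGAM* -0.10 in 6 months vs. ctrl, *ITGAM* -0.028 in 6 months vs. ctrl. Without single arrays, the differences for 0 vs. ctrl ranged from 0.41 to 0.75 for *CXCL8*, -0.11 to 0.24 for *CXCR2*, -0.091 to 0.14 for *CSF3R*, 0.026 to 0.21 for *ITGAM*, -0.22 to -0.023 for *ITGB2*, -0.089 to 0.28 for *PTAFR*. Without single arrays, the differences for 6 months vs. ctrl ranged from 0.033 to 0.35 for *CXCL8*, -0.12 to 0.093 for *CXCR2*, -0.012 to 0.15 for *CSF3R*, 0.033 to 0.31 for *ITGAM*, -0.084 to 0.056 for *ITGB2*, 0.036 to 0.21 for *PTAFR*. Without single arrays, the differences for 0 vs. 6 months ranged from 0.18 to 0.57 for *CXCL8*, -0.11 to 0.24 for *CXCR2*, -0.17 to 0.054 for *CSF3R*, -0.17 to 0.11 for *ITGAM*, -0.22 to -0.0016 for *ITGB2*, -0.21 to 0.16 for *PTAFR*. Of the correlations, 4 of 36 turned sign with normexp and loess. In ctrl this was 0.026 for *CXCR2* with *ITGB2*. Before ASIT it was 0.021 for *CXCL8* with *ITGAM*, -0.11 for *CXCL8* with *PTAFR* and 0.26 for *ITGB2* with *PTAFR*. From other probes, only the relations of before with after ASIT were run. Of these, 1 of 8 turned sign, at -0.18 for *ITGAM*. The relations between pairs of genes were not run with other probes, so that count does not extend to them. The cause of the changes of sign was not tested.

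Over all tested probes, limma called 16 in 0 vs. ctrl (11 higher, 5 lower). This became 0 with normexp and loess, with the strict filter, with the slide as a random block and with Tukey's test, 9 with the series matrix (4 higher, 5 lower) and 8093 in the Cy5 channel alone (2769 higher, 5324 lower). For 6 months vs. ctrl the Cy5 channel alone called 5947, and for 0 vs. 6 months no filter called 1, where the main setting called 0. With the dog as a replicate block the count for 0 vs. 6 months was 0 (2511 under an unadjusted 0.05). Without single arrays the counts ranged over 0 to 440, 0 to 2 and 0 to 103 in the 3 comparisons. The highest were 440 and 103 without dog 1 before ASIT, 135 and 19 without dog 2 before ASIT, and 94 for 0 vs. 6 months without dog 3 after ASIT. The count for 0 vs. ctrl was 0 without dogs 3 or 6 before ASIT or control dogs 1, 2, 4, 5 or 8, 1 without dog 5, 10 without dogs 4 or 7, and 5, 6 and 3 without control dogs 3, 6 and 7. Dropping dog 6 after ASIT gave 1 for 0 vs. 6 months, and dropping dogs 1 or 2 after ASIT gave 1 and 2 for 6 months vs. ctrl. The number of arrays limits all of these comparisons. Slides and scans separate ctrl from the cAD patients, and for 0 vs. 6 months they separate dogs 5 to 7 before ASIT (slide 5) and dogs 4 to 7 after ASIT (slide 6, with a scan and a design version of its own), while the signal of the member probes was above background throughout.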
